A study of Mus musculus with 18 samples.

Results

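The genes described here encode the ADAM and ADAMTS metalloproteinases and the ADAMTS-like proteins of mouse lung fibroblasts that had entered a collagen gel or stayed on top of it. They were taken as every gene whose symbol is Adam, Adamts or Adamtsl followed by a number and at most 1 letter, and which has at least 1 probe set of the array annotated with that symbol alone. This gave 57 genes of the 19938 that have such a probe set: 34 Adam, 18 Adamts and 5 Adamtsl genes. Each gene was read from its probe set with the highest mean signal. Of the 57 genes, 24 had a mean signal over all samples above log2(100), which is 6.64, and are called expressed. The other 33 are described apart from them. Adamts2 was not analysed here.

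ADAM proteins are membrane-anchored, and those with an intact zinc-binding site act as sheddases, which cut growth factors, cytokine receptors and adhesion molecules off the cell surface. Other ADAM proteins lack the catalytic site and bind partners on neighbouring cells. ADAMTS proteases are secreted, carry thrombospondin repeats that attach them to the matrix, and cut matrix proteins such as versican, aggrecan and the propeptides of collagens, whereas ADAMTS-like proteins share the repeats without the protease domain. In lung and other connective tissue, fibroblasts are a main source of several ADAMTS proteases.

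All samples came from MLg 2908, a wild-type fibroblast line from newborn ddY mouse lung, so that the spread between samples is the spread between cultures of 1 line. Cells were plated on a collagen gel, and those found within it (invading) were separated from those left on its surface (non-invading) after 72 hours, with 4 samples of each fraction, or after 96 hours, with 5 of each, which gives 18 samples. The treatment entry of every sample names TGFB1 beside the assay, while the titles name no treatment. The legend of the study's array heatmaps spells out an abbreviation for non-treated cells, and the paper describes the invasion of part of the cells as spontaneous. Whether the factor was present is not settled by these sources. The study's legend counts each array as an independent experiment. RNA was hybridised to Affymetrix Mouse Gene 1.0 ST arrays, and the values are log2 signals. Between samples of 1 group, Pearson's r over all 35556 probe sets lay between 0.991 and 0.996, and by this measure no array stood apart. For single genes some samples did, as described below. The number of arrays limits the precision. Since RNA was measured in bulk, fewer cells that express a gene cannot be told apart from less RNA of it per cell. The cultures carried signals of fibroblasts: 9 of 10 fibroblast markers were expressed (the exception was Thy1, with a mean signal of 6.07), and the marker Fn1, fibronectin, had a mean signal of 13.52.

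The 24 expressed genes comprised 10 of 34 Adam, 11 of 18 Adamts and 3 of 5 Adamtsl genes. By role, 8 of the 19 ADAM proteins with an active-site motif were expressed, and 2 of the 13 without protease activity, most of which are known from testis and sperm. Among the ADAMTS proteases, 4 of 7 of the proteoglycanases, both measured procollagen N-proteinases, both members of the group that cuts cartilage oligomeric matrix protein (COMP), and 3 of 6 others were expressed. The gene of the protease that cuts von Willebrand factor, Adamts13, was not. Adam8, at 6.67, lay just above the limit and Adamtsl3, at 6.61, just below it. Adam11, Adam33, Adamts3 and Adamtsl1 lay between 7.06 and 6.96, and a gap of 1.12 separated them from the next gene above, Adamtsl4 at 8.19. A higher limit within that gap would leave these genes and Adam8 out of the expressed set. Probe sets differ in how strongly they bind, so the order of these signals is not an order of transcript numbers.

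**Figure D1:**
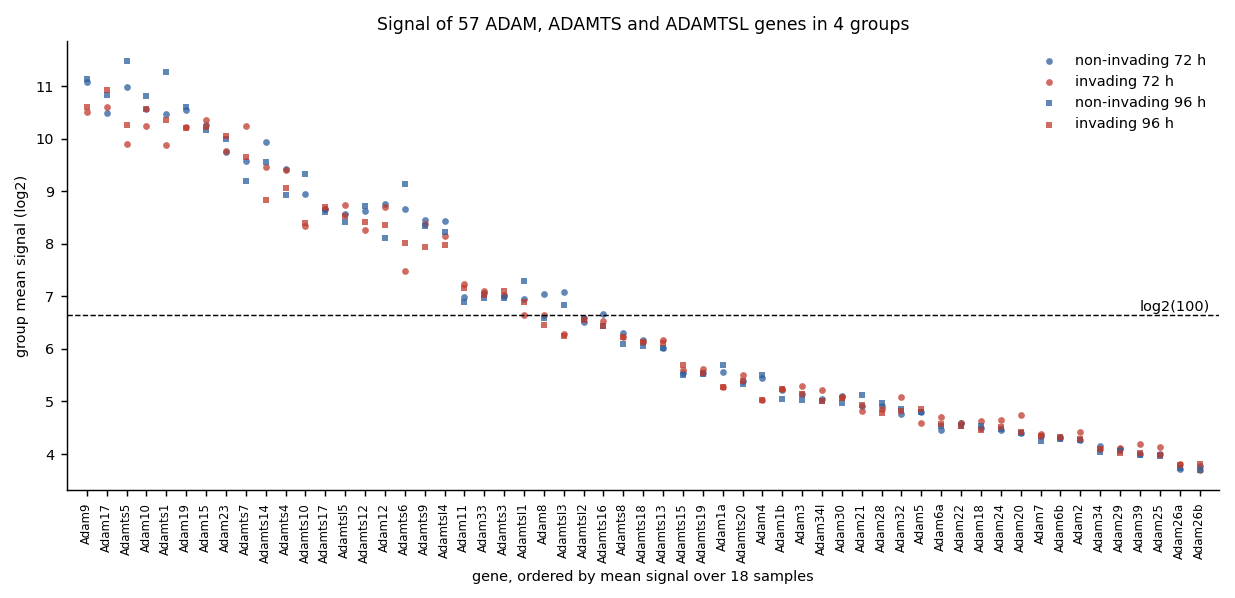
Mean log2 signal of each of the 57 genes (horizontal axis, ordered by the mean over 18 samples) in the 4 groups; circles are 72 h and squares 96 h, red is the invading and blue the non-invading fraction, and the dashed line marks log2(100). The 24 genes above the line run from 10.83 for Adam9 to 6.67 for Adam8, and the group means of Adamts6, Adamts5 and Adamts1 spread most widely.

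Which of these genes differed between invading and non-invading cells was tested at each time with limma, with p-values adjusted by Benjamini and Hochberg over all probe sets and called at an adjusted p under 0.10. At 72 h, 11 of the 24 expressed genes were lower in the invading fraction and 1, Adamts7, was higher. Over all 11096 expressed genes of the array, 22.6% were called lower and 18% higher. At 96 h, 12 of the 24 were lower and 3 were higher, against 22.4% and 24.3% of all expressed genes. The median log2 ratio of the 24 was -0.18 at 72 h and -0.19 at 96 h, beside 0.00 and 0.02 over all expressed genes. Of the 24 genes, 10 were lower at both times, 1 was higher at both, 1 was called at 72 h only and 4 at 96 h only, 8 were called at neither time, and 0 were called in opposite directions.

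The split of the calls depended on how the arrays were scaled. With the arrays centred on their median, which put the median of all probe sets' log2 ratios at 0.12 in place of 0.00 at 96 h, the split was 4 higher and 7 lower at 72 h and 9 higher and 9 lower at 96 h, and the median of the 24 was -0.10 and -0.07. Over all expressed genes, centring called 26.5% higher and 15.8% lower at 72 h and 46.6% and 12.6% at 96 h. Their medians were then 0.08 and 0.14. With quantile normalization applied again the split of the 24 was 3 higher and 10 lower at 72 h and 6 higher and 10 lower at 96 h. The shares of all expressed genes were then 28% higher and 19.8% lower at 72 h and 35.9% and 20.8% at 96 h. The median of the 24 was -0.12 and -0.10, beside 0.06 and 0.07 over all expressed genes. With either scaling the median of the 24 thus stayed below that of all expressed genes. No called gene turned its sign under either scaling.

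The larger differences lay among the Adamts genes. With a ratio above 1.5 in either direction required as well, 4 of the 24 were lower and 1 higher at 72 h (4.59% and 1.52% of all expressed genes), and 5 were lower and 0 higher at 96 h (3.15% and 1.91%). All of these, in either direction, were Adamts genes: Adamts1, Adamts5, Adamts6, Adamts7 and Adamts10 at 72 h, and Adamts1, Adamts5, Adamts6, Adamts10 and Adamts14 at 96 h. Adam9, with a log2 ratio of -0.583 at 72 h, just missed the limit, which is 0.585 on the log2 scale. The samples of the fractions did not overlap for 12 of the 24 genes at 72 h and for 9 at 96 h, beside 37.7% and 28.9% of all expressed genes.

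**Figure D2:**
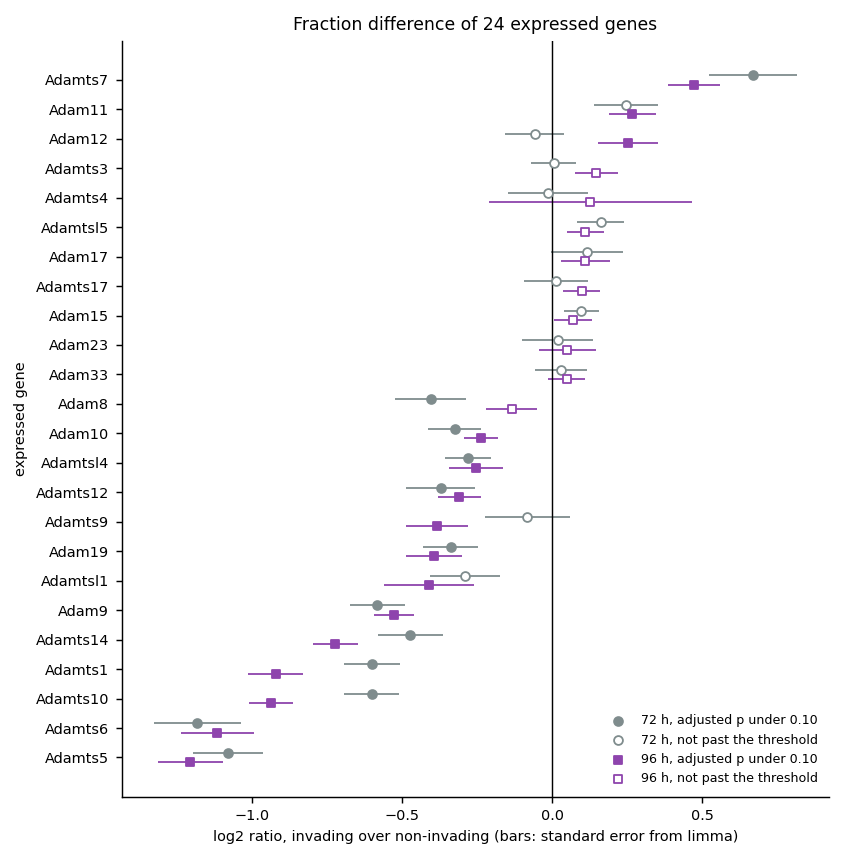
Log2 ratio, invading over non-invading, of the 24 expressed genes, ordered by the ratio at 96 h; grey circles are 72 h (n = 4 per fraction), purple squares 96 h (n = 5 per fraction), bars are the standard error from limma, and filled symbols passed an adjusted p of 0.10. Adamts5 and Adamts6 lie lowest at both times, at -1.08 to -1.21, and Adamts7 is the gene that passed on the higher side at both times.

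Promoters are shown for 3 ADAMTS genes that were lower in the invading fraction, Adamts1, Adamts14 and Adamts9, so that their start regions can be read beside the values. RefSeq's table for GRCm38.p6 held a promoter for 31 of the 57 genes. Each sequence runs 5′ to 3′ on the gene's strand from 250 bases before the start to 50 bases after it, on the minus strand in all 3 cases: Adamts1 at chr16:85803064-85803363, Adamts14 at chr10:61273370-61273669 and Adamts9 at chr6:92943485-92943784. Capitals mark the motifs found on either strand.
Adamts1: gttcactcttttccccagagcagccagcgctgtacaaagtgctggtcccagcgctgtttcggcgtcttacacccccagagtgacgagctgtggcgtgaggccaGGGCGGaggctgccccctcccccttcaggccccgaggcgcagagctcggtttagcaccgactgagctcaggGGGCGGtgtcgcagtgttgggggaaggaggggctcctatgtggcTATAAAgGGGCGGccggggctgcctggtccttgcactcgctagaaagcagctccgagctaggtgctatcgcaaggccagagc
Adamts14: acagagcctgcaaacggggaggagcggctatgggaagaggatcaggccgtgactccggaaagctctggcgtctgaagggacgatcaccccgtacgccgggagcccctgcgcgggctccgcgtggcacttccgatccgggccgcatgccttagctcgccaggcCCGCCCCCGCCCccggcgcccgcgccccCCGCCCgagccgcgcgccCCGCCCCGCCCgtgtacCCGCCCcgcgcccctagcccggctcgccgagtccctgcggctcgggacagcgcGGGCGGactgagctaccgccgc
Adamts9: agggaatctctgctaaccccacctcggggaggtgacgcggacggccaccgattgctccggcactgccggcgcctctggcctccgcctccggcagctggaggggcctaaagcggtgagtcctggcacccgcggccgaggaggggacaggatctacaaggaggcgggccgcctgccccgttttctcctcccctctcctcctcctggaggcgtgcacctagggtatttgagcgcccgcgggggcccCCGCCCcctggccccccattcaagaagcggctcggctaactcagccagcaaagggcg
The motifs searched were the TATA box (TATAAA), the GC box (GGGCGG), the CCAAT box (CCAAT), the AP-1 site (TGANTCA) and the TEAD site (GGAATG). The Adamts1 promoter held 1 TATA box, which 13.6% of the 32851 promoters in the table hold, and 3 GC boxes. Adamts14 held 7 GC boxes, of which 1 pair overlaps by 1 base, and no TATA box, and its promoter was 76.7% G and C, against 64.7% for Adamts1 and 70.0% for Adamts9. Adamts9 held 1 GC box. At least 1 GC box was found in 35.7% of all promoters. The letters of the CCAAT box (in 37.4% of all promoters), the AP-1 site (7.81%) and the TEAD site (14.7%) were not found in these 3 windows.

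Among the proteoglycanases, which cut versican and aggrecan, Adamts5 and Adamts1 were lower in invading cells at both times. Adamts5, the main aggrecanase of mouse cartilage, had log2 signals of 10.94, 10.75, 11.17 and 11.08 in the non-invading samples at 72 h and 10.02, 9.76, 10.10 and 9.74 in the invading ones. At 96 h the non-invading samples read 11.24, 11.58, 11.61, 11.32 and 11.63 and the invading samples 10.58, 10.13, 10.31, 10.24 and 10.09. Every invading sample lay below every non-invading sample of its time. The ratio of the fractions was 0.473 at 72 h (log2 ratio -1.08, standard error 0.12, limma adjusted p = 0.000816) and 0.434 at 96 h (-1.21, standard error 0.11, adjusted p = 4.8e-05). Adamts1, a secreted protease that cuts versican and is also known to inhibit vessel growth, read 10.48, 10.38, 10.56 and 10.50 in the non-invading samples at 72 h and 10.06, 9.80, 9.99 and 9.68 in the invading ones. At 96 h the values were 11.13, 11.41, 11.34, 11.03 and 11.46 in the non-invading and 10.39, 10.24, 10.48, 10.22 and 10.43 in the invading fraction. The fractions did not overlap at either time, and the gap was wider at 96 h, when the non-invading samples stood above those of 72 h. The change of this gap between the times did not itself pass a limma test (adjusted p = 0.52). The ratio was 0.660 at 72 h (log2 ratio -0.60, standard error 0.09, limma adjusted p = 0.00297) and 0.528 at 96 h (-0.92, standard error 0.09, adjusted p = 7.93e-05). Adamts1 and Adamts5 are neighbours on chromosome 16 of GRCm38.p6, with 1 annotated gene between them, which codes for no protein.

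Adamts4, the other major aggrecanase, had a mean signal of 9.18 and did not pass the test at either time. Its log2 ratio was -0.01 at 72 h (95% interval -0.32 to 0.29, limma adjusted p = 0.95) and 0.13 at 96 h (-0.62 to 0.87, adjusted p = 0.82). At 96 h its signal was 9.88, 8.49, 8.49, 8.92 and 8.89 in the non-invading and 10.26, 8.68, 8.68, 8.78 and 8.92 in the invading samples. Replicate 1 of each fraction stood well above the other samples, and the fractions overlapped. Without invading replicate 1 the log2 ratio at 96 h was -0.17 (adjusted p = 0.65), and without non-invading replicate 1 it was 0.36 (adjusted p = 0.43).

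Adamts9, which cuts versican and is needed for the forming of primary cilia, had 6 probe sets. The one with the highest signal, 8.26, gave a log2 ratio of -0.08 at 72 h (standard error 0.14, limma adjusted p = 0.72) and -0.39 at 96 h (standard error 0.10, adjusted p = 0.0174). The other 5 gave lower ratios at 72 h, down to -0.93, so that 4 of the 6 were called lower at 72 h and all 6 at 96 h, where they ran from -0.93 to -0.38. With the mean of the 6 in place of the highest, Adamts9 was lower at 72 h too (log2 ratio -0.45, adjusted p = 0.0234). Adamts3 and Adamts17 also had several probe sets, but of the 16 of Adamts3 none was called at 72 h and 1 at 96 h, a dim one at 4.18 with a log2 ratio of 0.15 (adjusted p = 0.072), and of the 5 of Adamts17 none was called at either time.

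**Figure D3:**
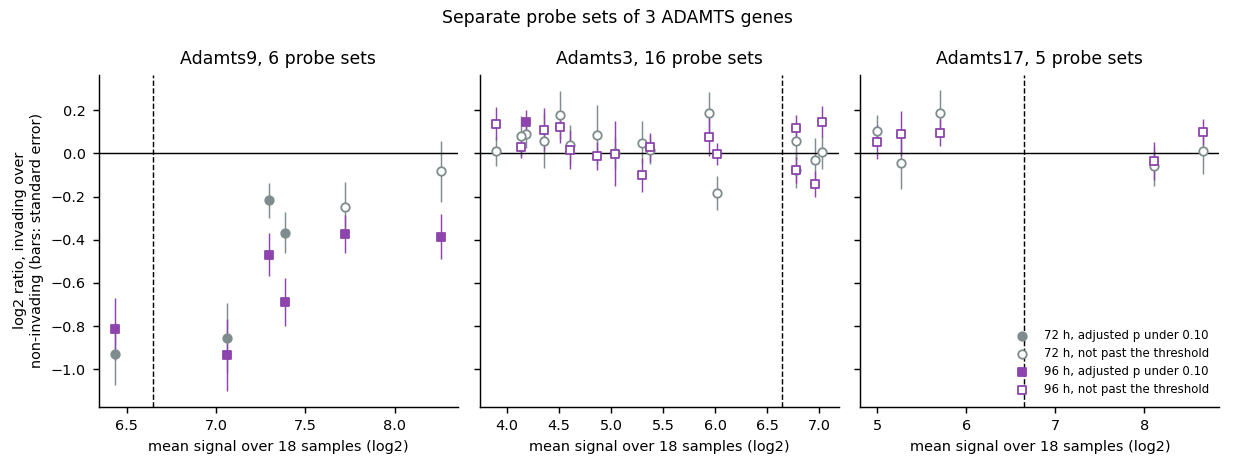
Each probe set of Adamts9, Adamts3 and Adamts17 by its mean log2 signal over 18 samples (horizontal axis) and its log2 ratio, invading over non-invading (vertical axis); grey circles are 72 h, purple squares 96 h, bars are the standard error from limma, filled symbols passed an adjusted p of 0.10, and the dashed line is log2(100). All 6 probe sets of Adamts9 lie below 0 at both times, between -0.93 and -0.08, while those of Adamts3 and Adamts17 lie between -0.18 and 0.19.

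Adamts6 and Adamts10, a related pair of proteases that act on fibrillin microfibrils, were lower in invading cells at both times. Adamts6 read 8.70, 8.29, 8.68 and 9.02 in the non-invading samples at 72 h and 7.35, 7.38, 7.55 and 7.67 in the invading ones. At 96 h it read 8.98, 9.39, 8.98, 8.91 and 9.43 and 8.16, 8.05, 7.75, 8.17 and 7.99, in the same order. The fractions were far apart at each time, without overlap. The ratio was 0.441 at 72 h (log2 ratio -1.18, standard error 0.15, limma adjusted p = 0.00127) and 0.461 at 96 h (-1.12, standard error 0.12, adjusted p = 0.000127). Adamts10, mutated in a short-stature syndrome with stiff joints and lens defects, read 8.88, 8.88, 8.98 and 9.05 in the non-invading samples at 72 h and 8.23, 8.25, 8.60 and 8.32 in the invading ones. At 96 h it read 9.33, 9.32, 9.29, 9.21 and 9.48 and 8.58, 8.38, 8.45, 8.24 and 8.30. Again no invading sample reached the non-invading range of its time. The ratio was 0.659 at 72 h (log2 ratio -0.60, standard error 0.09, limma adjusted p = 0.00296) and 0.523 at 96 h (-0.94, standard error 0.07, adjusted p = 2.43e-05). Adamts17, with a mean signal of 8.66, had log2 ratios of 0.01 (95% interval -0.23 to 0.25) and 0.10 (-0.04 to 0.23), and neither passed the test, although centring called the latter higher (limma adjusted p = 0.0111).

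The procollagen N-proteinases remove the amino-terminal propeptides of fibrillar collagens. Adamts14 read 10.08, 10.11, 9.77 and 9.78 in the non-invading samples at 72 h and 9.47, 9.66, 9.42 and 9.30 in the invading ones. In the same order, the samples of 96 h read 9.31, 9.61, 9.65, 9.69 and 9.55 and 8.88, 8.77, 8.74, 8.88 and 8.92. The non-invading samples were the higher ones at both times, without overlap, and both fractions were lower at 96 h than at 72 h. The ratio was 0.720 at 72 h (log2 ratio -0.47, standard error 0.11, limma adjusted p = 0.0163) and 0.606 at 96 h (-0.72, standard error 0.07, adjusted p = 9.56e-05). Adamts3, which also activates the lymphatic growth factor VEGF-C, had a mean signal of 7.03 and did not pass the test, with log2 ratios of 0.00 (95% interval -0.17 to 0.18) at 72 h and 0.15 (-0.01 to 0.30) at 96 h. At 96 h it was called higher with either other scaling (limma adjusted p = 0.0089 and 0.0114) and without invading replicate 1 (0.0765).

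The 2 proteases that cut COMP differed in direction. Adamts7, known from vascular smooth muscle and coronary disease, read 9.70, 9.56, 9.53 and 9.51 in the non-invading samples at 72 h and 10.42, 10.61, 10.07 and 9.87 in the invading ones. At 96 h it read 9.42, 8.91, 9.20, 9.29 and 9.14 and 9.71, 9.71, 9.71, 9.61 and 9.55. Here the invading samples were the higher ones at both times and did not overlap with the others. The ratio was 1.59 at 72 h (log2 ratio 0.67, standard error 0.15, limma adjusted p = 0.0137) and 1.39 at 96 h (0.47, standard error 0.09, adjusted p = 0.00229). Adamts12, its closest relative, had a mean signal of 8.52 and was lower in the invading fraction, with log2 ratios of -0.37 at 72 h (adjusted p = 0.0503) and -0.31 at 96 h (adjusted p = 0.0076). The call at 72 h was lost without non-invading replicate 1 (adjusted p = 0.11) and with the arrays centred on their median (adjusted p = 0.102).

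**Figure D4:**
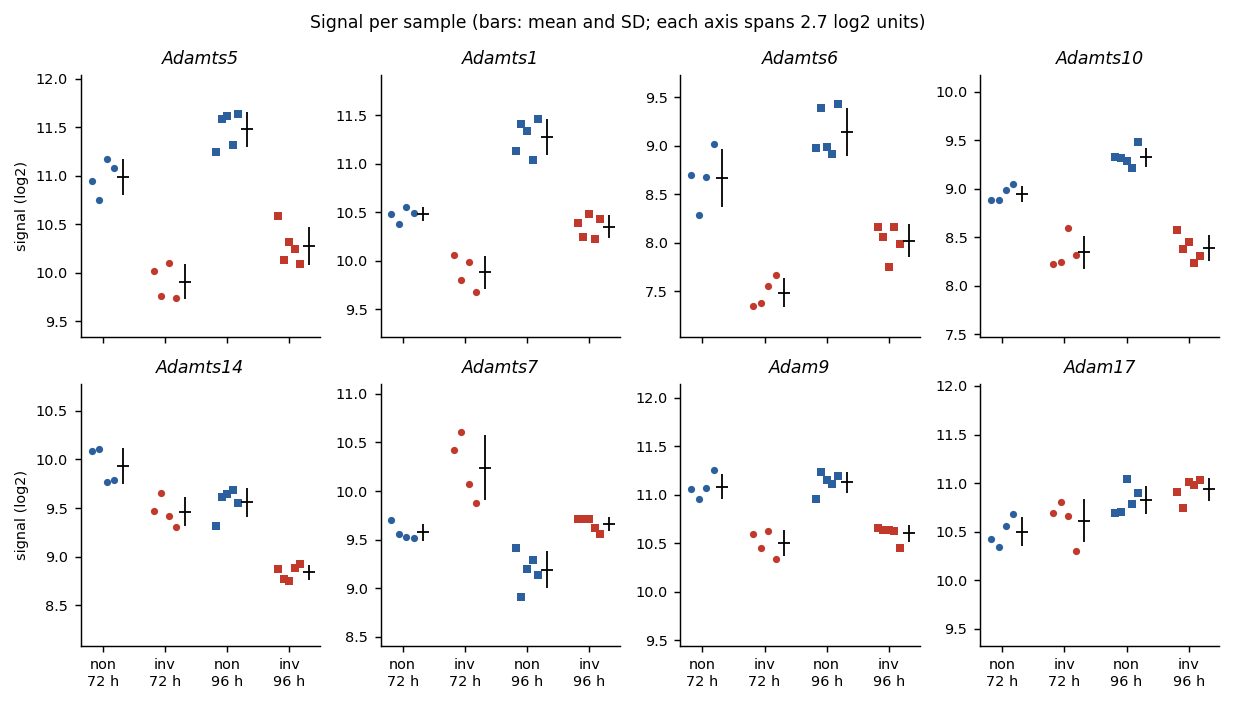
Log2 signal of every sample for 6 ADAMTS genes, Adam9 and Adam17; blue is the non-invading and red the invading fraction, circles are 72 h (n = 4) and squares 96 h (n = 5), and black bars give the mean and SD. The red points lie below the blue ones at both times for Adamts5, Adamts1, Adamts6, Adamts10, Adamts14 and Adam9, above them for Adamts7, and among them for Adam17.

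Of the ADAM sheddases, Adam9, Adam10 and Adam19 were lower in invading cells at both times. Adam9, a broadly expressed sheddase, read 11.06, 10.95, 11.07 and 11.25 in the non-invading samples at 72 h and 10.60, 10.45, 10.62 and 10.34 in the invading ones. At 96 h it read 10.96, 11.24, 11.15, 11.11 and 11.20 and 10.66, 10.64, 10.64, 10.63 and 10.45. All invading samples lay below all non-invading ones. The ratio was 0.668 at 72 h (log2 ratio -0.58, standard error 0.09, limma adjusted p = 0.00315) and 0.694 at 96 h (-0.53, standard error 0.07, adjusted p = 0.000262). Adam10, which cuts Notch receptors and cadherins, had a mean signal of 10.56 and log2 ratios of -0.33 at 72 h (adjusted p = 0.029) and -0.24 at 96 h (adjusted p = 0.00907); with the arrays centred on their median the latter was -0.12 (adjusted p = 0.112). Adam19, which sheds neuregulins, had a mean signal of 10.39 and log2 ratios of -0.34 (adjusted p = 0.0314) and -0.39 (adjusted p = 0.00949), of which the first became -0.26 (adjusted p = 0.116) after centring.

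Adam17, the sheddase of TNF and of several EGF receptor ligands, did not pass the test between the fractions. It read 10.42, 10.34, 10.56 and 10.68 in the non-invading samples at 72 h and 10.70, 10.80, 10.66 and 10.30 in the invading ones. After 96 h the samples read 10.70, 10.71, 11.04, 10.78 and 10.90 and 10.90, 10.74, 11.02, 10.98 and 11.03. The fractions overlapped at both times. Its log2 ratio was 0.11 at 72 h (95% interval -0.16 to 0.38, limma adjusted p = 0.55) and 0.11 at 96 h (-0.07 to 0.29, adjusted p = 0.36), and of the settings tried, centring the arrays on their median called it higher at 96 h (log2 ratio 0.23, adjusted p = 0.0564).

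The remaining expressed ADAM genes differed less. Adam8, an ADAM of leukocytes and activated cells at a mean signal of 6.67, was lower at 72 h (log2 ratio -0.41, limma adjusted p = 0.0418), a call that was lost with a second quantile normalization (adjusted p = 0.121) and with centring (adjusted p = 0.106). At 96 h its log2 ratio was -0.14 (adjusted p = 0.27). Adam12, a sheddase expressed by activated mesenchymal cells, had a mean signal of 8.45, a log2 ratio of -0.06 at 72 h (adjusted p = 0.72) and a higher level in the invading fraction at 96 h (0.25, adjusted p = 0.0834). That call depended on single samples: leaving out any 1 of 8 of the 10 samples ended it (adjusted p 0.112 to 0.177), and it was kept without invading replicate 1 or non-invading replicate 4. Adam11, a catalytically inactive ADAM best known from the nervous system, had a mean signal of 7.06 and was higher at 96 h (log2 ratio 0.27, adjusted p = 0.0253), with 0.25 at 72 h (adjusted p = 0.138), where 5 of 9 other settings called it (adjusted p 0.0487 to 0.0956). Adam15, Adam33 and the inactive Adam23 had mean signals of 10.25, 7.04 and 9.90 and log2 ratios between 0.02 and 0.10 at both times, and none of these passed the test. Centring called Adam15 higher at both times (adjusted p = 0.0706 and 0.0396), and either other scaling called Adam33 higher at 96 h (0.0337 and 0.0417).

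The ADAMTS-like genes encode matrix proteins, some of which bind fibrillin microfibrils. Adamtsl4, mutated in displaced lenses, had a mean signal of 8.19 and was lower in the invading fraction, with log2 ratios of -0.28 at 72 h (limma adjusted p = 0.0323) and -0.25 at 96 h (adjusted p = 0.0587). The call at 96 h was lost without invading replicate 1, 2 or 4 or non-invading replicate 3 or 4 (adjusted p 0.111 to 0.125) and with either other scaling (0.149 and 0.276), and that at 72 h with centring (adjusted p = 0.107). Adamtsl1 had a mean signal of 6.96 and log2 ratios of -0.29 (adjusted p = 0.115) and -0.41 (adjusted p = 0.0631). It was called at 96 h, but not without invading replicate 1, 2 or 4 or non-invading replicate 2 or 5 (adjusted p 0.112 to 0.139), nor with either other scaling or the mean of its probe sets (0.128 to 0.207). At 72 h it was called without invading replicate 3 (adjusted p = 0.0606) and in 4 of 9 other settings, the replicate block among them (0.0657 to 0.0859). Adamtsl5, with a mean signal of 8.55, had log2 ratios of 0.16 and 0.11 and was not called. It was called higher at 72 h without invading replicate 3 (adjusted p = 0.0949), at 96 h without non-invading replicate 1 (adjusted p = 0.0381), and at both times with either other scaling.

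The 33 genes below log2(100) had mean signals from 3.75 to 6.61, and 5 of them were called at 72 h and 6 at 96 h. Counted with the 24, this made 14 lower and 3 higher of 57 at 72 h, beside 13.5% and 13% of all 19938 genes, and 16 lower and 5 higher at 96 h, beside 14.7% and 16.7%. In either direction, 5290 of the 19938 genes were called at 72 h and 6255 at 96 h. Of these, 4514 and 5180 were among the 11096 expressed genes, so that most called genes of the array lay above the limit. Adamtsl3, a matrix protein whose signal lay nearest to the limit, was lower at both times, with log2 ratios of -0.80 (limma adjusted p = 0.00586) and -0.60 (adjusted p = 0.0493). The latter call was lost without invading replicate 5 or non-invading replicate 2 or 5 (adjusted p 0.102 to 0.105). Adam1a, whose product is a fertilin subunit, was lower too, at -0.28 (adjusted p = 0.0914) and -0.42 (adjusted p = 0.00249). At 72 h alone, Adam5 was lower (-0.22, adjusted p = 0.0604), and Adam20 (0.33, adjusted p = 0.031) and Adam32 (0.30, adjusted p = 0.072) were higher. At 96 h alone, Adam4 (-0.48, adjusted p = 0.00245) and Adam28 (-0.18, adjusted p = 0.0385) were lower, and Adamts15 (0.20, adjusted p = 0.0287) and Adam1b (0.19, adjusted p = 0.0609) were higher. Leaving out 1 sample ended the calls of Adam1a (adjusted p up to 0.194), Adam5 (up to 0.144) and Adam32 (up to 0.155) at 72 h and that of Adam1b (up to 0.133) at 96 h, each for 5 different samples. With either other scaling the calls of Adam1a and Adam5 at 72 h (adjusted p 0.135 to 0.227) and of Adam28 at 96 h (0.382 and 0.407) were lost, and with the replicate block those of Adam5 and Adam32 (0.121 for Adam32). None of 7 testis and sperm markers was called at either time, and 1 of them, Prm2, had a mean signal above the limit.

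The change from 72 to 96 h was tested within each fraction in 1 limma fit over all samples. In the non-invading fraction 6 of the 24 expressed genes were higher at 96 h and 4 lower, beside 25.5% and 17.7% of all expressed genes. In the invading fraction 6 were higher and 6 lower, beside 30.8% and 19%. Of the genes that were lower in invading cells, Adamts1 rose with time in both fractions, by a log2 ratio of 0.79 in the non-invading (adjusted p = 3.04e-05) and 0.47 in the invading fraction (adjusted p = 0.00133). Adamts5 rose by 0.49 (adjusted p = 0.00708) and 0.36 (adjusted p = 0.0314), and Adamts6 by 0.47 (adjusted p = 0.0249) and 0.54 (adjusted p = 0.00906), in the same order. Adamts10 rose by 0.38 in the non-invading fraction (adjusted p = 0.00385) and had a log2 ratio of 0.04 in the invading one (adjusted p = 0.77). The sheddases Adam10 and Adam17 rose in both fractions: Adam10 by 0.25 (adjusted p = 0.0166) and 0.34 (adjusted p = 0.00154), and Adam17 by 0.33 (adjusted p = 0.0328) and 0.32 (adjusted p = 0.0299). Single samples carried some of these calls. Without invading replicate 4 of 72 h the rise in the invading fraction was no longer called for Adam17 (adjusted p = 0.125) and Adamts5 (adjusted p = 0.105), and without non-invading replicate 2 of 72 h the rise in the non-invading fraction was not called for Adam17 (adjusted p = 0.116) and Adamts6 (adjusted p = 0.106).

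Adamts14, Adamts7 and Adam12 fell with time in both fractions. Adamts14 had log2 ratios of -0.37 in the non-invading (limma adjusted p = 0.00842) and -0.62 in the invading fraction (adjusted p = 9.54e-05), and Adamts7 of -0.38 (adjusted p = 0.0333) and -0.58 (adjusted p = 0.00186). For Adam12 they were -0.65 (adjusted p = 0.000337) and -0.34 (adjusted p = 0.0242). Adam8 fell in the non-invading fraction (-0.46, adjusted p = 0.00485). In the invading fraction Adamtsl5 (-0.21, adjusted p = 0.0305), Adam15 (-0.14, adjusted p = 0.0938) and Adamts9 (-0.42, adjusted p = 0.0219) fell and Adam23 rose (0.29, adjusted p = 0.0608). The fall of Adamts9 was that of its highest probe set: over the mean of its 6 probe sets the log2 ratio was -0.01 (adjusted p = 0.95). The call of Adam15 was lost in 15 of 18 fits that left out 1 sample each (adjusted p up to 0.225) and with centring (0.205), and that of Adam23 with a second quantile normalization (0.15) and without invading replicate 4 of 72 h or invading replicate 2, 3 or 4 of 96 h (adjusted p up to 0.229). Of the genes that were not expressed, Adam5 was higher at 96 h in the invading fraction (0.27, adjusted p = 0.00931), Adam20 (-0.32, adjusted p = 0.0071), Adam32 (-0.26, adjusted p = 0.0243), Adam18 (-0.16, adjusted p = 0.033) and Adam39 (-0.18, adjusted p = 0.0458) were lower there, and Adamts16 (-0.22, adjusted p = 0.0761) and Adam1b (-0.16, adjusted p = 0.0983) were lower in the non-invading fraction. The calls of Adam18 (1 left-out sample), Adam39 (2), Adamts16 (4) and Adam1b (13) did not hold in every fit that left out a sample (adjusted p up to 0.104, 0.161, 0.189 and 0.238). Those of Adam18 and Adam39 were also lost with centring (0.106 and 0.113), and that of Adam1b with the replicate block and with the trended robust fit (0.119 to 0.156).

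Whether the difference between the fractions itself changed between 72 and 96 h was tested with the interaction term of the same limma fit. None of the 57 genes passed, 7 had an unadjusted p under 0.05, and the lowest adjusted p was 0.37, for Adam32. Such an unadjusted p was found for 1623 of all 19938 genes and for 1122 of the 11096 expressed genes. Over all expressed genes 3 passed, or 0.027%. The ratio at 96 h less that at 72 h was -0.33 on the log2 scale for Adamts10 (standard error 0.12, adjusted p = 0.42) and -0.32 for Adamts1 (standard error 0.13, adjusted p = 0.52). A gene called at 1 time only is therefore not shown to differ between the times.

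The 3 genes whose signals followed Adamts5 most closely over the 18 samples, among all 57, were Adamts10 (Pearson's r = 0.96), Adamts6 (0.95) and Adam9 (0.95). These values describe the 4 groups as much as the samples within them, since all 4 genes were lower in invading cells at 72 and 96 h, and the 18 arrays were normalized together.

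The partners of these proteases were followed through 4 lists of known genes. Of 16 activators and partners, such as convertases, carriers of ADAM17 and ADAM10 and enzymes that glycosylate thrombospondin repeats, 5 were higher and 2 lower in invading cells at 72 h and 7 were higher and 4 lower at 96 h. Over all 19938 genes, 13% were called higher and 13.5% lower at 72 h, and 16.7% and 14.7% at 96 h. Over all expressed genes these shares were 18% and 22.6%, and 24.3% and 22.4%. The same shares stand beside the next 3 lists. In the order described, 14 of 16, 6 of 8, 27 of 34 and 10 of 15 measured genes of the 4 lists were expressed. The median log2 ratio of the activators and partners was 0.13 at both times. A second quantile normalization gave 7 higher and 1 lower at 72 h and 10 and 3 at 96 h, and centring gave 6 and 1, and 11 and 3. Of all expressed genes, the second normalization called 28% higher and 19.8% lower at 72 h and 35.9% and 20.8% at 96 h. Centring called 26.5% and 15.8%, and 46.6% and 12.6%. These shares stand beside the next 3 lists under the same scalings. Frmd8, which keeps the ADAM17 carriers at the cell surface, was higher at both times (log2 ratios 0.45 and 0.42, limma adjusted p = 0.00697 and 0.00341), as was Tspan10 of the tetraspanins that carry ADAM10 (0.50 and 0.45, adjusted p = 0.012 and 0.0319). Tspan17, of the same group, was at 0.36 and 0.28 (adjusted p = 0.0417 and 0.0233), where the call at 72 h was lost without invading replicate 1 or 2 or non-invading replicate 4 (adjusted p 0.103 to 0.106). Ccbe1, the partner of ADAMTS3 in cutting VEGF-C, was higher at 96 h (0.69, adjusted p = 0.00121) and had a log2 ratio of 0.17 at 72 h (adjusted p = 0.4).

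Of 8 inhibitors and clearance receptors, 1 was higher and 1 lower at 72 h, and 2 were higher and 2 lower at 96 h, with median log2 ratios of 0.06 and 0.03. With centring the split at 96 h was 4 higher and 1 lower. Timp3, the tissue inhibitor known to block ADAM17 and the aggrecanases, was lower in invading cells at both times (log2 ratios -0.75 and -0.69, limma adjusted p = 0.00136 and 0.000285). Timp1, which inhibits ADAM10, was higher at 96 h (0.40, adjusted p = 0.00117), with 0.10 at 72 h (adjusted p = 0.34). Timp4, at a mean signal of 5.25 and thus not expressed, was at 0.34 and 0.37 (adjusted p = 0.0807 and 0.0173); leaving out any of 6 samples ended the call at 72 h (adjusted p up to 0.184). Lrp1, an endocytic receptor that clears ADAMTS5, was lower at 96 h (-0.23, adjusted p = 0.0322), but not with centring (adjusted p = 0.192).

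Of 34 measured substrates of ADAM sheddases, 5 were higher and 5 lower at 72 h, and 7 were higher and 6 lower at 96 h, with median log2 ratios of -0.04 and 0.09. With the arrays centred on their median the split at 96 h was 19 higher and 4 lower, and with a second quantile normalization 15 and 6. Of all expressed genes, 46.6% were called higher and 12.6% lower at 96 h with centring, and 35.9% and 20.8% with the second normalization. Cxcl16, a membrane-bound chemokine shed by ADAM10, was higher at both times (log2 ratios 0.76 and 0.84, limma adjusted p = 0.00127 and 0.00182), as was Tnfrsf1b, a TNF receptor shed by ADAM17 (0.48 and 0.44, adjusted p = 0.00493 and 0.00245). Cdh2, N-cadherin, which ADAM10 cuts, was lower (-0.65 and -0.76, adjusted p = 0.002 and 2.45e-05), and so was Met, the receptor of hepatocyte growth factor (-0.80 and -0.54, adjusted p = 0.00144 and 0.00389).

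Of 15 measured substrates of ADAMTS proteases, 0 were higher and 4 lower at each time, with median log2 ratios of 0.04 and 0.05. The 4 are genes of fibrillar collagens and the same at both times: Col3a1 (log2 ratios -0.35 and -0.35, limma adjusted p = 0.0134 and 0.0071), Col1a1 (-0.25 and -0.24, adjusted p = 0.06 and 0.02), Col5a1 (-0.28 and -0.19, adjusted p = 0.0553 and 0.0651) and Col1a2 (-0.20 and -0.20, adjusted p = 0.0591 and 0.0294). This split turned with the scaling. After centring it was 4 higher and 1 lower at 72 h and 9 higher and 1 lower at 96 h, where Col3a1 alone stayed lower, and after a second quantile normalization it was 4 higher and 4 lower, and 7 higher and 4 lower. Centring also moved the shares of all expressed genes, to 26.5% higher and 15.8% lower at 72 h and 46.6% and 12.6% at 96 h. At 72 h the calls of Col1a1, Col1a2 and Col5a1, and at 96 h that of Col5a1, were also lost in fits that left out 1 sample (adjusted p up to 0.121, 0.13 and 0.12, and 0.142), and those of Col1a1 and Col1a2 at 72 h with the replicate block (0.103 and 0.139): without non-invading replicate 1 of 72 h only 1 gene of the list was called, and without non-invading replicate 4 of 72 h 2 were.

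Some markers of other cell types were higher in the invading fraction, by log2 ratios as large as those of several ADAM and ADAMTS genes. Among the leukocyte markers, 1 of 6 was expressed, Cd68, and it was higher in the invading fraction at 96 h (log2 ratio 0.56, limma adjusted p = 0.00334), as was Lyz2 (0.41, adjusted p = 0.0327), while Ptprc, the marker that defines leukocytes, had a mean signal of 5.31. The mean of the 6 markers was 5.95 to 5.97 in invading against 5.77 to 5.86 in non-invading samples at 72 h and 5.82 to 6.04 against 5.65 to 5.81 at 96 h, without overlap at either time. Among 8 epithelial markers 1 was expressed, Krt8, which was higher in the invading fraction at both times (0.53 and 0.32, adjusted p = 0.0207 and 0.0274), and Epcam and Cdh1, below the limit at 5.50 and 6.19, were higher at 96 h (0.18 and 0.15, adjusted p = 0.0833 and 0.094). The call of Cdh1 was lost with the trended robust fit (0.123), the replicate block (0.158) and 1 fit over all samples (0.124). Leaving out any 1 of several samples also ended it (adjusted p up to 0.193). The mean of the list was 5.85 to 5.98 against 5.70 to 5.86 at 72 h and 5.78 to 5.86 against 5.60 to 5.79 at 96 h. None of 6 endothelial markers was expressed or called. The median log2 ratio at 72 and 96 h was 0.18 and 0.12 for the leukocyte list and 0.10 and 0.11 for the epithelial list. It was 0.08 and 0.10 for the endothelial markers and 0.16 and 0.08 for the testis and sperm markers. Over all 19938 genes it was 0.04 and 0.02. A higher median was thus not particular to the leukocyte and epithelial lists. Of the 10 fibroblast markers, 1 was higher and 3 were lower in invading cells at 72 h, and 0 and 3 at 96 h. Of all expressed genes, 18% were called higher and 22.6% lower at 72 h, and 24.3% and 22.4% at 96 h. The 3 lower markers were Col1a1, Col1a2 and Col3a1 at both times, which are also among the ADAMTS substrates above. With centring the calls of Col1a1 and Col1a2 were lost at both times. The part of these markers in the results was not tested.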

How the data were processed

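The data are 18 arrays of the Affymetrix Mouse Gene ST type, 1 per RNA sample. The log2 values deposited by the authors are gene-level RMA signals with sketch-quantile scaling (Expression Console 1.2 in the submitters' processing notes), and they ran from 2.94 to 14.7. Quantile scaling removes differences that touch most genes, so the values are relative to the array. They were not transformed further.

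Symbols came from the array's annotation: of 35556 probe sets, 21789 carry 1 symbol, 1621 several and 12146 none here, of which 6617 are low-numbered. The 57 genes have 82 probe sets, and 2 probe sets shared with other genes were left out. The test between fractions was that of limma 3.58.1 (R 4.3.3), with a fit per time and no covariates, and times and the interaction in 1 fit over 18 samples. P-values were adjusted by Benjamini and Hochberg over all probe sets and called under 0.10. Intervals are 95% intervals from limma. The fits were tested on simulated data. No column of the table was left unused for want of a sample.

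The members, gene lists and tests were chosen with earlier results of these data known. Expressed and called members are all named, with every sample's value for expressed members called with a ratio above 1.5 and for the 3 with the highest signal; up to 4 called genes are named per list, those with the largest ratio. A probe set was chosen by its mean over all samples. The alternatives were a second quantile normalization, centring, a limit on dim probe sets, probe sets with 1 symbol, a trended robust fit, the replicate block, 1 fit over all samples, other thresholds, the mean of a gene's probe sets and leaving out each sample. A fit that left out the low-numbered probe sets, and each probe set of Adamts9, were added after seeing the data. Promoters came from RefSeq (GRCm38.p6). The authors' qRT-PCR, immunoblots and invasion counts were not analysed here.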

Additional observations from a re-analysis of the deposited data

Results flagged for a closer look

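In 10 of the 96 groups of samples examined for the 24 expressed genes, 1 sample stood far from the others of its group, by Dixon's test at 95%. Chance alone gives this in about 1 in 20 groups. At 72 h these were Adam10 in invading replicate 4 (10.02, the others 10.28 to 10.32), Adam11 in non-invading replicate 4 (6.72, the others 7.05 to 7.10), Adam12 in non-invading replicate 1 (8.88, the others 8.71 to 8.72) and Adamts17 in invading replicate 1 (8.79, the others 8.62 to 8.64). At 96 h replicate 1 stood apart for Adam19 (10.79, non-invading, the others 10.53 to 10.58), Adam23 (9.86, invading, the others 10.06 to 10.13), Adamts4 (10.26, invading, the others 8.68 to 8.92) and Adamtsl5 (8.61, non-invading, the others 8.35 to 8.38). The other 2 were Adam8 in non-invading replicate 4 (6.86, the others 6.47 to 6.56) and Adam9 in invading replicate 5 (10.45, the others 10.63 to 10.66), both at 96 h. The gap of Adamts4 was the widest in log2 units of these 10. Without these samples the calls of Adam9, Adam10 and Adam19 were kept.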

How the results depend on the processing

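At 96 h the 21 calls among the 57 genes became 35 with a second quantile normalization and 41 with centring. Of the 24 expressed genes, the higher ones went from 1 to 3 and 4 at 72 h and from 3 to 6 and 9 at 96 h, and the lower ones from 11 to 7 with centring at 72 h. Over all expressed genes the share called higher also rose, from 18% to 28% and 26.5% at 72 h. At 96 h it rose from 24.3% to 35.9% and 46.6%. Of the 24, the higher ones at 72 h were 2 with only probe sets above 100, with only those of 1 symbol and with 1 fit over 18 samples. With a ratio above 1.5 required, 6 of the 57 were called at each time in place of 17 and 21 (expressed: 4 lower at 72 h; 5 lower and 0 higher at 96 h), and 1 and 2 in place of 17 and 12 for the change with time in the invading and non-invading fraction. The cause was not tested, except that a stricter limit calls fewer. Adamts1, Adamts5, Adamts6, Adamts7, Adamts10, Adamts14 and Adam9 were called in the same direction at both times under every scaling, probe set choice, variance model and left-out sample, and no called gene turned its sign. Leaving out each sample in turn gave 14 to 19 calls at 72 h and 17 to 20 at 96 h (expressed: 1 to 2 higher and 10 to 12 lower; 2 to 4 higher and 10 to 12 lower), 13 to 18 and 9 to 15 for the change with time in the invading and non-invading fraction, 0 for the interaction and 23 to 24 expressed genes.

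Of the lists, ADAMTS substrates went from 4 calls at 72 h to 8 with a second quantile normalization, 7 with 1 fit over 18 samples, 2 with the replicate block and 1 at an adjusted p under 0.05, and from 4 at 96 h to 11 and 10 with the scalings. ADAM substrates at 96 h went from 13 to 21 and 23. Inhibitors at 72 h went from 2 to 1 with probe sets above 100, the block, or the stricter p. With the ratio limit, activators had 0 and 1 calls at the 2 times, inhibitors 1 and 1, ADAM substrates 3 and 2, and ADAMTS substrates 0 and 0. Left-out samples gave 1 to 2 for inhibitors and 1 to 5 for ADAMTS substrates at 72 h.

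After group means were removed, samples of the same replicate number correlated at -0.07 to 0.09 at 72 h and 0.05 to 0.17 at 96 h, and matched their own number best in 1 of 4 and 4 of 5 cases. The labels do not say whether samples of 1 number came from the same gel, and these values do not settle it, although a legend of the study names a paired test for array values. The fit without the block was kept. With the replicate block 17 genes were called at 72 h, 21 at 96 h, 19 and 14 for the change with time in the invading and non-invading fraction, and 0 for the interaction. For the change with time, the block also joined samples of the same number across 72 and 96 h, although the labels do not link them. Signals below log2(100) are near the background of the array, and small ratios there are less certain.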
